A study of Mus musculus with 2 samples.

Results

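Among CD8 T cells sorted from MC38 tumours, 186 cells carried high counts of granzyme C (Gzmc) and granzyme F (Gzmf) transcripts and no transcript of the division genes Mki67 or Top2a. They were chosen from 2 single-cell libraries on these counts. A cell had to have at least 500 detected genes, a mitochondrial share of transcripts under 10%, a transcript of Cd3d, Cd3e or Cd3g, and a transcript of Cd8a or Cd8b1. It also had to have no transcript of Mki67 or Top2a and at least 40 Gzmc and Gzmf transcripts per 10000. Transcripts were counted as unique molecular identifiers (UMIs), so that copies made by amplification count once. The control library gave 28 such cells and the NK-depleted library 158, out of 3472 and 2937 Mki67- and Top2a-negative CD3+CD8+ cells, 15516 kept cells and 17977 deposited cells in all. The other 3444 control and 2779 NK-depleted cells of that kind are called the cells below the cut.

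Both libraries came from wild-type mice (label WT) that bore MC38, a mouse colon carcinoma line, and tumours were taken 9 days after implantation. The NK-depleted mice had the treatment label a-NK1.1 antibody, which targets a surface lectin of natural killer (NK) cells. The control mice had the treatment label PBS, while their library name holds the abbreviation Iso, and the labels do not say which injection was given. How many mice were pooled into a library is not stated by the sources used here. NK1.1 is also found on some T cells, and its gene Klrb1c had 1 UMI and 16 UMIs, or 2.546 and 8.15 UMIs per 1000000 UMIs (CPM), in the granzyme C and F-high cells of the control and NK-depleted libraries. Each group is 1 library, so replicate spread is unknown and no test was made, and all intervals below are 95% intervals of counting error alone.

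Granzymes are serine proteases that killer lymphocytes store in granules. Perforin lets them enter a target cell, where granzyme B cleaves caspases and other proteins. Granzymes C, D, E, F and G are encoded beside granzyme B in mice. Their transcripts appear late in activated killer T cells, and granzyme C has been linked to killing without the classical caspase route.

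The genes lie in a row on the minus strand of chromosome 14 (GRCm38), from Gzme at chr14:56117626-56120625 and Gzmd at chr14:56129556-56132608 through Gzmg at chr14:56156582-56159579 and Gzmf at chr14:56205263-56211417 to Gzmc at chr14:56231441-56234656 and Gzmb at chr14:56258838-56262260. These spans are from GENCODE, and some of their starts differ from those of RefSeq, so the Gzmf and Gzmd windows below overlap the spans by a few bases. The 150 bases before the RefSeq start of each gene of the C to G group are shown because the neighbours were high in the same group of cells, Gzmg mainly in the NK-depleted library. They are from RefSeq on GRCm38.p6, minus strand, 5′ to 3′, and capitals mark the palindrome TGACGTCA, the letters of the cyclic AMP response element.
Gzmc, chr14:56234658-56234807: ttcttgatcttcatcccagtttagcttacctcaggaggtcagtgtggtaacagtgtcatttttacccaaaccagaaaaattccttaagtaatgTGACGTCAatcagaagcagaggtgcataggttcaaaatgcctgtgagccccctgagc
Gzmf, chr14:56211408-56211557: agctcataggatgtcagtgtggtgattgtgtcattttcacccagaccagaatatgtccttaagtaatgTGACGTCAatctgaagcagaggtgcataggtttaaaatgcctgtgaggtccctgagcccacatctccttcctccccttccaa
Gzmg, chr14:56159580-56159729: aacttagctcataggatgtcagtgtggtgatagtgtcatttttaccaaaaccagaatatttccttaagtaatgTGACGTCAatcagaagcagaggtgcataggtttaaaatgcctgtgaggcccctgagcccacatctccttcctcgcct
Gzmd, chr14:56132594-56132743: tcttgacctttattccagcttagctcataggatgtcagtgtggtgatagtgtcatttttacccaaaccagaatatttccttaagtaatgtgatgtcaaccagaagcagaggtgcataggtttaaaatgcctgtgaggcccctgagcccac
Gzme, chr14:56120626-56120775: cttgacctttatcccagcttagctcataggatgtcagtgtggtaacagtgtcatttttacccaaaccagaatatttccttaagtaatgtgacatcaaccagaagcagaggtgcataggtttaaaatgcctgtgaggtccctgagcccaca
The palindrome was found in the Gzmc, Gzmf and Gzmg windows and not in those of Gzmd and Gzme. It was chosen after the windows had been read. Of 32851 RefSeq windows of this length, 447 (1.36%) hold it. The RUNX letters TGTGGT were found on either strand in all 5 windows and in 8.40% of all windows. The AP-1 letters TGANTCA, with N for any base, were found in none of the 5 and in 4.24% of all windows. The 5 windows share most of their letters, so matches in them are not independent of one another. These matches describe letters and not binding.

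The transcripts of these neighbours share stretches of sequence, so counts may pass between them. Of the 915 windows of 50 bases in the Gzmd transcript, 110 occur letter for letter in that of Gzme, and 40 in that of Gzmf. No window was shared between Gzmc and Gzmf or between Gzmb and any of the others. Values of Gzmd, Gzme and Gzmg are therefore uncertain to that extent.

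The cut was set on a tail. In the control library 2876 of the 3472 cells had no Gzmc or Gzmf UMI, 500 had above 0 and under 10 per 10000, and 68 had 10 to under 40. In the NK-depleted library these counts were 870, 1729 and 180 of 2937. Above the cut, 17 control and 76 NK-depleted cells had 40 to under 80, 10 and 44 had 80 to under 160, and 1 and 38 had 160 or more. The nearest control cells lay at 40.9 inside and 39.4 outside the cut, and the nearest NK-depleted cells at 40.7 inside and 39.5 outside. From 30 to under 40 there were 12 control and 32 NK-depleted cells, and from 40 to under 50 there were 9 and 24, so the cut does not fall in a gap.

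**Figure D1:**
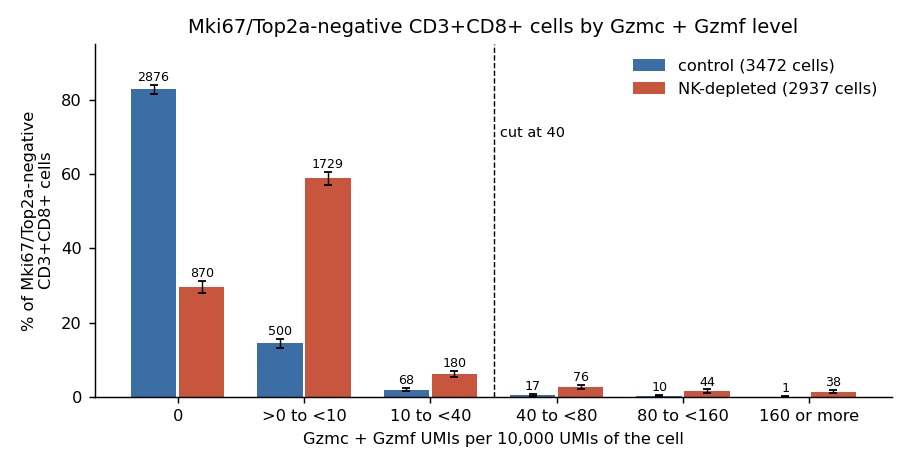
Share of Mki67/Top2a-negative CD3+CD8+ cells (y axis, % of these cells in the library) in 6 bins of Gzmc plus Gzmf UMIs per 10000 (x axis), with the number of cells above each bar, exact 95% intervals as error bars and the cut as a dashed line. The cells at or above 160 number 1 in the control and 38 in the NK-depleted library.

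Members made up 0.806% of the Mki67- and Top2a-negative CD3+CD8+ cells in the control library (exact Clopper-Pearson interval 0.536 to 1.16%) and 5.38% in the NK-depleted library (4.59 to 6.26%). The difference was 4.57 percentage points, a ratio of 6.67 (4.44 to 10.4). It was 2.06 points when 10 further division genes had to be absent, with 18 and 44 members, and 2.48 points at a cut of 80. The larger group of dividing cells gave the same direction: over the cut were 3.24% of control and 13.6% of NK-depleted CD3+CD8+ cells with a Mki67 or Top2a UMI.

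Stray transcripts released from broken cells can put a few UMIs into any droplet, and cells that should lack these granzymes give a guide to their level. Cells without a Cd3 UMI and with at least 10 UMIs of H2-Aa, H2-Ab1 and Cd74, the signature of antigen-presenting cells, had 0.550 Gzmc and Gzmf UMIs per 10000 in the control and 1.41 in the NK-depleted library. Of these, 17.1% of 41 control cells and 77.8% of 18 NK-depleted cells had at least 1 UMI. Among the cells below the cut the shares with a UMI were 16.5% and 68.7%, at or under those of the antigen-presenting cells, at median depths of 9293 and 8882 UMIs against 8653 and 9532.5. In level the cells below the cut stood higher, at 0.792 and 2.87 per 10000. A single Gzmc or Gzmf UMI is not read as expression here, and its source was not tested. Of the antigen-presenting cells 2 of 41 and 0 of 18 passed the cut. The highest control one reached 55.1 per 10000. The 41 control ones together had 14 Gzmc and 2 Gzmf UMIs, so their level may not measure stray transcripts alone.

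The rule required CD8 T cell transcripts of members and of the cells below the cut alike, so their presence is no separate support for identity. The summed level of 6 CD8 T cell markers was 7350 CPM in control and 6438.4 CPM in NK-depleted members, against 6251.6 and 5308.7 CPM below the cut. All of these markers but Trac, a T cell receptor constant gene, were used by the rule. Trac differed little, with log2 ratios of -0.15 and 0.07. Defining markers of most other cell types were scarce. CD4 T cell markers were an exception in level: 5 of them summed to 101.8 and 54.5 CPM, against 33.9 and 34.2 CPM below the cut, led by the transcription factor genes Ikzf4 and Zbtb7b. Ikzf4 stood at 50.9 and 32.1 CPM against 17.3 and 19.97 CPM, while Cd4 itself had 1 UMI in control members and none in NK-depleted members, and Foxp3 had none in either. Their part in the results was not tested. Of 6 neutrophil markers and of 5 fibroblast markers none had a UMI in any member, and 5 of 6 B cell markers were at 0 in control members and 4 of 6 in NK-depleted members. Of 8 NK cell markers 4 were at 0 in each library, and the summed level was 259.7 and 290.5 CPM, against 169.6 and 182.4 CPM below the cut. Its leading genes were Klre1 in the control and Fcer1g in the NK-depleted library, both also counted in the cells below the cut. Gamma delta T cell markers summed to 17.8 and 16.3 CPM, under the 42.3 and 59.7 CPM below the cut. Of 9 dendritic cell markers 6 were at 0 in control members and 1 in NK-depleted members, and they summed to 20.4 and 146.3 CPM, against 291.3 and 295.9 CPM below the cut. No member had 2 UMIs each of 2 or more T cell receptor beta V segments, a sign of 2 T cells in 1 droplet, although segments were sparsely counted.

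The label resting fitted the members only in part. The sum of 10 further division genes, among them Cdk1 and Ccnb1, was 89.1 CPM in control members and 132 CPM in NK-depleted members. It was 1172 and 1236.5 CPM in the over-the-cut cells that had a Mki67 or Top2a UMI, and 37.7 and 83.7 CPM below the cut. At least 1 UMI of these genes was found in 10 of 28 control members (35.7%, 18.6 to 55.9%) and in 114 of 158 NK-depleted members (72.2%, 64.5 to 79.0%). After each cell was thinned to 5000 UMIs, which left out 2 and 20 shallower members, the shares were 26.9% (11.6 to 47.8%) and 44.9% (36.5 to 53.6%), against 13.5% and 27.6% below the cut. Among them was Ube2c, of mitotic protein breakdown, at 40.7 and 62.7 CPM in members against 13.3 and 25.4 CPM below the cut. Most over-the-cut cells were dividing by the rule's own genes: 111 of 139 in the control library (79.9%) and 710 of 868 in the NK-depleted library (81.8%). Below the cut these shares were 49.1% and 61.9%. They were taken without thinning and move with depth. The over-the-cut cells with a Mki67 or Top2a UMI had medians of 24076 and 18493.5 UMIs, against 13074 and 12044.5 in members. The part of stray division transcripts in these shares was not tested.

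Members were sequenced more deeply than the cells below the cut. Their median was 13074 UMIs in the control and 12044.5 in the NK-depleted library, with a range from 734 to 43903 and from 720 to 34355. Below the cut the medians were 9293 and 8882 UMIs. All member UMIs together came to 392789 and 1962290, so that 1 UMI is a coarser step in the control library. The median mitochondrial share was 2.57% and 2.65% in members against 2.29% and 2.89% below the cut. Of 391 cell barcodes found in both libraries, 1 belonged to a control member and 2 to NK-depleted members.

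Within the members, Gzmf was the main part of the score. Gzmf had 3283 UMIs and Gzmc 592 in control members, and 22199 and 3818 in NK-depleted members, as counted and not scaled by length. All 28 control members and 155 of 158 NK-depleted members had a Gzmf UMI, whereas 21 and 142 had a Gzmc UMI. Gzmf ran from 13.6 per 10000 over a median of 61.8 to 451 in control members, and from 0 over 75.8 to 518 in NK-depleted members. Gzmc ran from 0 over a median of 1.72 to 65.7 in control members, and from 0 over 8.47 to 164 in NK-depleted members. The 2 libraries overlapped over most of both ranges. Within cells the 2 genes were loosely related, with Spearman's rho of 0.40 over the 28 control members and 0.07 over the 158 NK-depleted members; all values of a cell share its depth, and the cut on the sum bounds both genes.

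The neighbours that the rule did not name were high as well. Gzmd stood at 471 CPM in control members and 839.8 CPM in NK-depleted members, against 13.3 and 31.0 CPM below the cut, ratios of 35.3 (29.6 to 41.9) and 27.1 (24.9 to 29.4). Gzme stood at 277.5 and 466.3 CPM against 11.9 and 24.7 CPM, ratios of 23.3 (18.7 to 28.9) and 18.9 (17.1 to 20.9). In both genes the members lay above the cells below the cut in each library. These ratios come from the contrast that chose the members, and they describe the cells without testing them.

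Gzmd and Gzme were carried by some members and not by others. Gzmd had UMIs in 8 of 28 control members and in 76 of 158 NK-depleted members, and Gzme in 11 and 60. The highest cell held 41.1% of the Gzmd UMIs of the control members, and without it the log2 ratio to the cells below the cut was 4.50 in place of 5.14. At 5000 UMIs a cell, Gzmd was found in 23.1% (8.97 to 43.7%) of control members and in 43.5% (35.1 to 52.2%) of the NK-depleted ones. Without thinning the shares were 28.6% and 48.1%. Gzme went the other way, in 38.5% (20.2 to 59.4%) of control members and in 33.3% (25.5 to 41.9%) of the NK-depleted ones, or in 11 of 28 and 60 of 158 without thinning. Both pairs of intervals overlap. Below the cut Gzmd was found in 1.47% and 5.12%. Of the antigen-presenting cells it was found in 1 of 25 in the control and in 0 of 15 in the NK-depleted library, which allows a share of up to 20%. Over NK-depleted members Gzmd followed Gzmf with a Spearman's rho of 0.38 and Gzme with 0.42, over 158 cells; over the 28 control members rho was 0.13 and 0.25.

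Gzmg was counted mainly in the NK-depleted library. It had 1 UMI in 1 control member and 158 UMIs in 27 NK-depleted members, or 2.546 and 80.5 CPM, a ratio of 31.6 (5.59 to 1257) that rests on that single control UMI. At 5000 UMIs a cell it was found in 0 of 26 control members, which allows a share of up to 11.5%, and in 14.5% (9.08 to 21.5%) of NK-depleted members, so these ranges overlap. Unthinned the shares were 3.57% and 17.1%. In the highest NK-depleted bin, at 160 or more Gzmc and Gzmf UMIs per 10000, it reached 194.5 CPM, and in the bin of 40 to under 80 it was at 9.63 CPM. The control library has 1 cell in that highest bin. The dividing cells over the cut had Gzmg at 14.2 and 68.4 CPM in the respective libraries. Gzmn, a granzyme of the same row known from the testis, had 0 and 1 UMI in members.

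**Figure D2:**
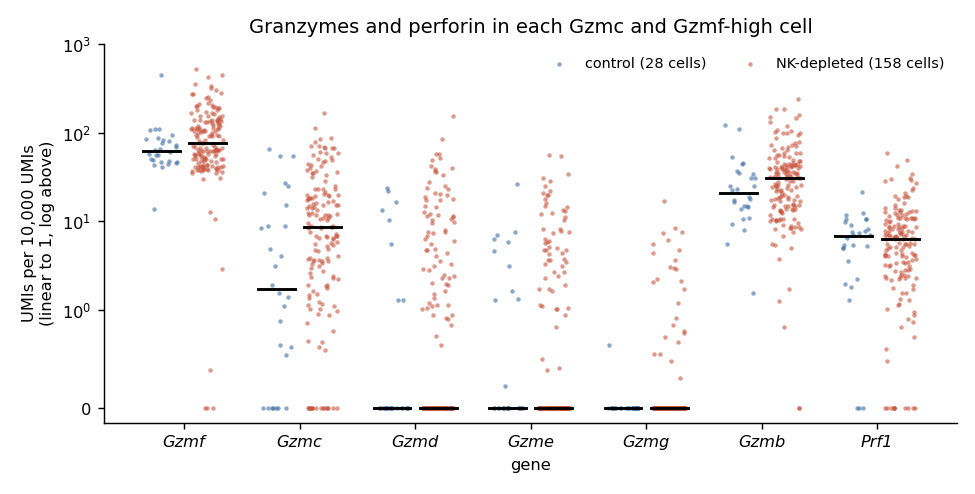
UMIs per 10000 UMIs (y axis, linear to 1 and logarithmic above) of 7 granule genes in each of the 28 control and 158 NK-depleted members, 1 point a cell, with the median as a black bar. Gzmf and Gzmb are found in nearly all members, while the medians of Gzmd, Gzme and Gzmg are 0.

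Granzyme B and perforin were high in members too, with smaller ratios. Gzmb stood at 2678.3 CPM in control members and 4792.9 CPM in NK-depleted members, against 1715.9 and 1984.4 CPM below the cut, ratios of 1.56 (1.47 to 1.66) and 2.42 (2.36 to 2.47). Per cell it ran from 1.54 over 20.7 to 120 per 10000 in control members and from 0 over 30.6 to 239 in NK-depleted members. Prf1, which encodes perforin, stood at 649.2 and 900.5 CPM against 215.2 and 256.3 CPM, ratios of 3.02 (2.65 to 3.42) and 3.51 (3.33 to 3.70). Among 18 measured granule partners 4 were higher by at least 25% in members of both libraries, and 1 was lower by that fold. The higher ones include Ctsd, the protease cathepsin D, at 585.6 and 858.2 CPM against 322.2 and 361 CPM, and Rab27a, needed for granule docking, with 0.80 and 0.97. The lower one was Gzmk, typical of less differentiated cells, at 43.3 and 23.4 CPM against 106.6 and 40.9 CPM.

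Across all genes, 2733 had at least 50 CPM in members or in the cells below the cut of each library. Of these 117 (4.28%) were at least 1.5-fold higher in members of both libraries and 131 (4.79%) at least 1.5-fold lower. Behind Gzmd and Gzme, the highest ratios by the library nearer 1 were those of Il1r2, Serpinb9b, Spp1, Klra5, Ifitm1, Myo10, Cd244a, Prf1, Lat2 and Prxl2a. The lowest were those of S1pr1, Cd7, Cxcl10, Tcf7, Emb, Cmah, Xcl1, Klf2, Cxcr3, Iigp1 and Ssh2. Several of the high genes rested on few cells. Klra5, a Ly49 receptor gene, had all its 21 control UMIs in 1 member, and Spp1, which encodes osteopontin, had 92.0% of its control UMIs in 1 of 4 positive members.

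**Figure D3:**
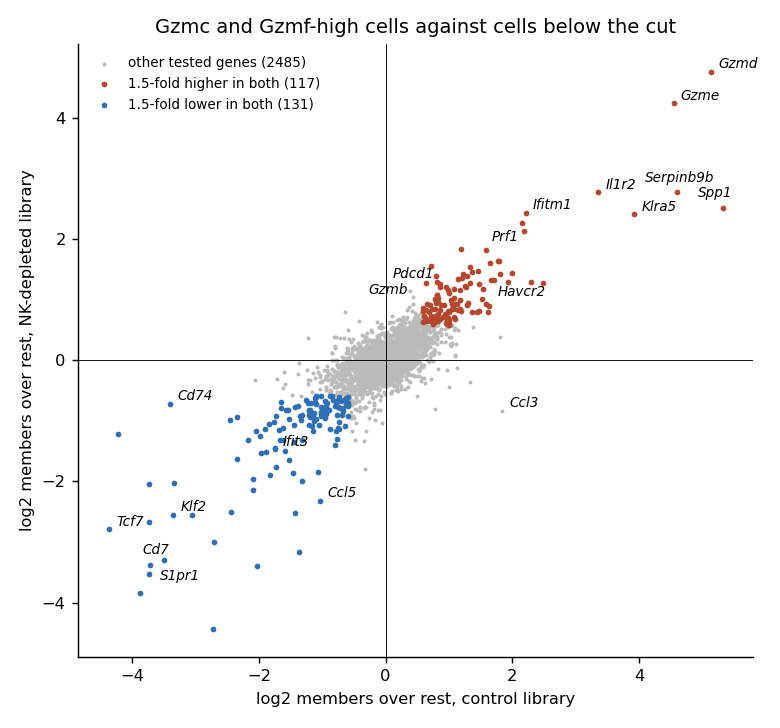
Log2 ratio of members over cells below the cut in the control library (x axis) and the NK-depleted library (y axis), 1 point for each of 2733 genes, with the 117 genes higher and the 131 lower by 1.5-fold in both libraries coloured. Gzmd and Gzme lie at the upper right, S1pr1 and Tcf7 at the lower left, and Ccl3 on opposite sides in the libraries.

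For gene lists a member gene counted as higher or lower where it differed by at least 25%, or its inverse, in both libraries and had at least 10 CPM. Over all 7282 such genes these shares were 9.42% and 12.4%. Their log2 ratios had a median of -0.03 in control and -0.01 in NK-depleted cells. The lists were read against these shares.

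Serpins that block granule proteases were higher in part. Of 7 measured, 3 were higher and 1 lower, with medians of 1.33 and 0.68. Serpinb9, the inhibitor of granzyme B, stood at 656.8 and 434.7 CPM against 240.4 and 249.5 CPM. Serpinb9b stood at 267.3 and 111.1 CPM against 11.04 and 16.3 CPM, ratios of 24.2 (19.4 to 30.1) and 6.81 (5.76 to 8.03). Serpinb6b had log2 ratios of 1.62 and 0.80.

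The inhibitory receptors split. Of 13 measured, 6 were higher in members of both libraries and 5 lower. Pdcd1, which encodes PD-1, stood at 394.6 CPM in control and 344.5 CPM in NK-depleted members against 187.5 and 152.4 CPM, ratios of 2.10 (1.78 to 2.47) and 2.26 (2.08 to 2.45). Havcr2, which encodes TIM-3, stood at 297.9 and 252.3 CPM against 94.3 and 100.6 CPM, log2 ratios of 1.66 and 1.33. Cd244a, which encodes the receptor 2B4, had log2 ratios of 2.18 and 2.13. Lag3 stood at 748.5 and 370.5 CPM against 366.4 and 251.6 CPM. At 5000 UMIs a cell, Havcr2 was found in 73.1% (52.2 to 88.4%) of control members and in 59.4% (50.7 to 67.7%) of the NK-depleted ones, against 18.8% and 23.5% below the cut. In the antigen-presenting cells, which were chosen as a guide for the granzymes and not for this gene, 1 of 25 and 2 of 15 had a Havcr2 UMI. Unthinned, 85.7% and 77.8% of members had a Havcr2 UMI. On the other side were Btla, with no UMI in control members and a log2 ratio of -2.74 in the NK-depleted library, and Nt5e, which encodes the ectoenzyme CD73, with -0.50 and -0.96.

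Tox did not go with these receptors. This factor of the exhausted state stood at 45.8 and 18.4 CPM in members against 76.7 and 28.4 CPM below the cut, log2 ratios of -0.74 and -0.63. Of 20 effector and exhaustion factors 7 were higher and 2 lower, with medians of 0.35 and 0.29. Irf8, an interferon regulatory factor, stood at 600.8 and 475 CPM against 183.9 and 189.9 CPM. Bhlhe40, a factor of cytokine production and mitochondrial fitness, had log2 ratios of 0.98 and 0.70, and Rbpj, the nuclear partner of Notch, 1.18 and 0.85. Eomes, of memory and exhausted cells, had -1.05 and -1.86. The 12 markers of terminally exhausted CD8 T cells summed to 2767.4 and 1780.6 CPM in members against 1312.8 and 976.4 CPM.

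Genes of stem-like and memory cells were low. Of 14 measured, none was higher and 12 were lower in members of both libraries, with median log2 ratios of -1.74 and -1.94. Tcf7, which encodes TCF-1, the factor that keeps memory and progenitor T cells, stood at 5.09 and 15.3 CPM against 104.7 and 105.9 CPM. That is 2 UMIs in control members and 30 in NK-depleted members, ratios of 0.0486 (0.00588 to 0.176) and 0.144 (0.0972 to 0.207). Slamf6 had 1 UMI in control members and log2 ratios of -4.34 and -3.52. S1pr1, the receptor that lets T cells leave tissue, stood at 5.09 and 5.61 CPM against 67.6 and 64.9 CPM. At 5000 UMIs a cell, Tcf7 was found in 0 of 26 control members, which allows a share of up to 11.5%, and in 2.90% (0.795 to 7.26%) of NK-depleted members, against 26.5% and 31.2% below the cut; unthinned shares in members were 7.14% and 7.59%.

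Il7r, the interleukin-7 receptor gene often read as a memory marker, did not follow. It stood at 366.6 and 326.1 CPM in members against 281.1 and 301.4 CPM below the cut, log2 ratios of 0.38 and 0.11. Il2ra, the high-affinity chain of the interleukin-2 receptor, stood at 137.5 and 138.1 CPM against 47.6 and 68.6 CPM. Il2rb, the shared beta chain, stood at 758.7 and 673.7 CPM against 450.2 and 447.9 CPM. The wider list of interleukin-2 and STAT5 response genes did not move one way, with 5 higher and 5 lower of 17. Socs3, a brake on cytokine signals, was among the lower ones with log2 ratios of -1.33 and -1.99, as was the kinase gene Pim1 with -1.42 and -0.78.

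Interferon-induced genes were low in members. Of 22 type I interferon response genes, none was higher and 17 were lower in both libraries, with medians of -1.23 and -0.72. Ifit3, which binds viral RNA complexes, stood at 203.7 and 139.1 CPM against 682.7 and 385 CPM. Ifit3b had log2 ratios of -2.09 and -1.96, and Oasl2 -1.83 and -1.89. Of 20 interferon gamma response genes none was higher and 13 were lower, with medians of -1.07 and -0.66. Gbp2, a guanylate-binding protein gene, stood at 50.9 and 42.3 CPM against 171.1 and 115.9 CPM. Iigp1, an immunity-related GTPase gene, stood at 28.0 and 10.7 CPM against 151.9 and 60.9 CPM.

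The Ifitm genes, which are also interferon-inducible, ran the other way. Ifitm1 stood at 1881.4 CPM in control and 3447 CPM in NK-depleted members against 406.9 and 638.4 CPM, ratios of 4.62 (4.29 to 4.98) and 5.40 (5.25 to 5.55). Ifitm2 stood at 412.4 and 1094.1 CPM against 159.7 and 400 CPM, and Ifitm3 at 471 and 928 CPM against 268.9 and 381.2 CPM. Per cell, Ifitm1 ran from 0 over a median of 12.4 to 94.7 per 10000 in control members and from 0 over 22.6 to 147 in NK-depleted members. Over the Ifitm and Ly6 list as a whole, 3 of 10 were higher and 1 lower.

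S100, annexin and galectin genes were mostly higher. Of 16 measured, 12 were higher in members of both libraries and none lower, with medians of 0.71 and 0.73. S100a4, a marker of motile cells, stood at 2836 and 3285 CPM against 1129 and 1366 CPM, ratios of 2.51 (2.37 to 2.67) and 2.40 (2.34 to 2.47). Lgals1, which encodes galectin-1, had log2 ratios of 1.09 and 0.93, and Anxa1, which encodes annexin A1, 1.93 and 1.30.

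Glycolysis and hypoxia genes were higher in part. Of 22 measured, 12 were higher in members of both libraries and none lower, with medians of 0.43 and 0.71. Tpi1, which encodes triose phosphate isomerase, stood at 252 and 399 CPM against 145.3 and 206.4 CPM. Ldha, which encodes lactate dehydrogenase, stood at 774 and 916.8 CPM against 490.2 and 587.2 CPM. Of 20 oxidative phosphorylation genes 1 was higher and none lower. Mt1, a metallothionein gene, stood at 56.0 and 206.9 CPM against 24.6 and 57.8 CPM.

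Adhesion and homing genes were mixed. Of 13 residency and adhesion genes 6 were higher and 4 lower. Itgav, the integrin chain alpha V, had log2 ratios of 1.47 and 1.26. Cd69, an early activation and retention gene, stood at 132.4 and 141.7 CPM against 417.9 and 353.3 CPM. Itga4 stood at 81.5 and 32.6 CPM against 222.3 and 83.6 CPM, but 1 cell held 71.9% of its 32 control UMIs. Among 9 chemokine receptors 1 was higher and 4 lower. Cxcr3, the receptor for the interferon-induced chemokines, stood at 12.7 CPM in members of both libraries against 105.7 and 75.3 CPM. Fos, of the early T cell receptor response, had log2 ratios of -1.59 and -1.50, and of 15 such genes none was higher and 5 were lower.

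Several of these differences began below the cut, as the levels by Gzmc and Gzmf bin show. Tcf7 stood at 136.8 CPM in NK-depleted cells without a Gzmc or Gzmf UMI, at 102.3 CPM in those above 0 and under 10, and at 11.9 CPM in those of 10 to under 40. Above the cut it was at 27.7, 8.67 and 3.603 CPM in the 3 bins. Ifit3 went from 413.3 and 392.4 CPM to 191.8 CPM at 10 to under 40, and then to 140.8, 168.3 and 106.3 CPM. Prf1 stood at 182.7 and 256.3 CPM in the lowest bins, at 565.8 CPM at 10 to under 40, and at 731.9, 917.7 and 1134.9 CPM above the cut. Gzmd was higher in each further bin, from 10.97 and 23.8 CPM over 188.4 CPM to 246.8, 704.3 and 1868 CPM. Gzmb went from 1510.4 and 2027.4 CPM over 3543.3 CPM to 3786, 4740.9 and 6353.5 CPM. In the control library Gzmb was flat from the bin of 10 to under 40 on, at 2742.5, 2886.2 and 2378.6 CPM, where the last 2 bins hold 17 and 10 cells.

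**Figure D4:**
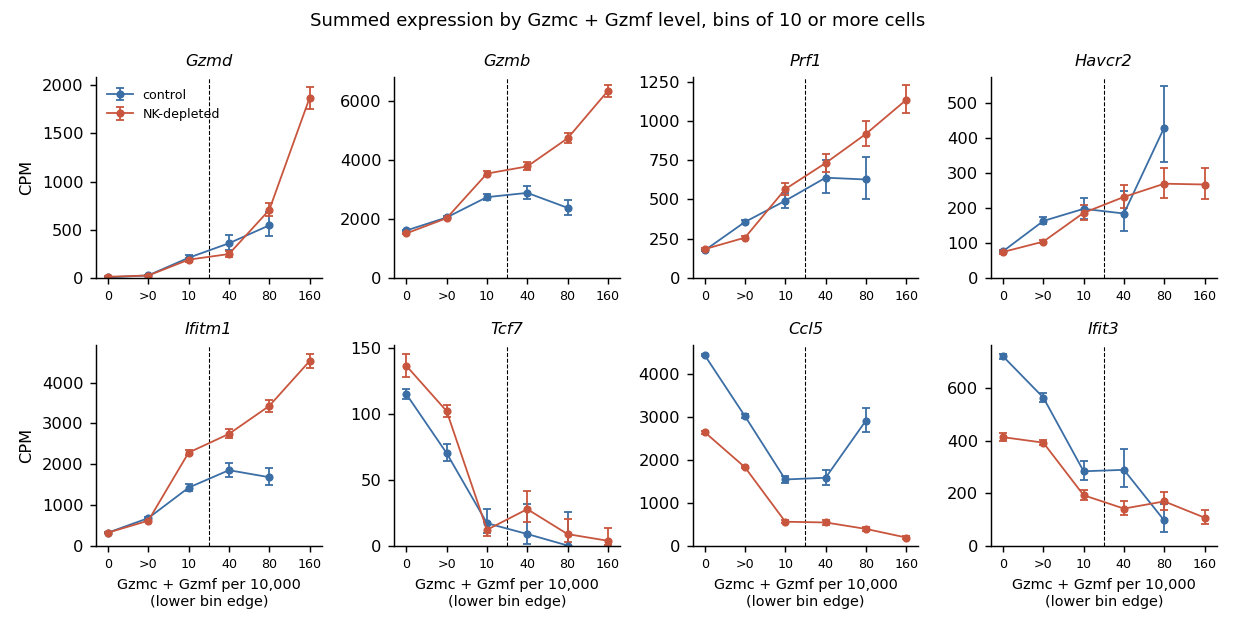
CPM (y axis) of 8 genes in Mki67/Top2a-negative CD3+CD8+ cells by Gzmc plus Gzmf level (x axis, lower edge of each bin) for the control and NK-depleted libraries, in bins of 10 or more cells, with exact 95% intervals of counting error and the cut as a dashed line. Tcf7 and Ifit3 are already low in the bin of 10 to under 40, while Gzmd reaches 1868 CPM in the highest NK-depleted bin.

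NK-depleted members were then set against control members. Of 2997 genes with at least 50 CPM in the members of 1 library, 121 (4.04%) were higher after NK depletion by 1.5-fold or more, and 343 (11.4%) were lower. In the cells below the cut, 10 of 2869 genes (0.349%) were higher and 58 (2.02%) lower. The member counts rest on 28 control cells, and their intervals excluded 1 for 86 of the higher and 280 of the lower genes. The split also depends on scaling. With factors from the trimmed mean of M values (TMM) it was 204 higher and 206 lower, as the median over all member genes moved from -0.09 to 0.05 on the log2 scale. Library differences are best read against a shift of that size.

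Granule partners as a list split between the libraries much as all genes did. Of 18 measured granule partners 4 were higher in NK-depleted members and 7 lower by the list threshold, and their median on the log2 scale was -0.22. Over all 7671 member genes at 10 CPM, 21.4% were higher and 31.5% lower. Stx11, which encodes syntaxin 11 of granule release, was among the lower ones at a log2 ratio of -1.02. Of the granzyme C to G row and its partners Gzmb and Prf1, Gzmd had a ratio of 1.78 (1.53 to 2.09), Gzme 1.68 (1.38 to 2.07), Gzmb 1.79 (1.68 to 1.91) and Prf1 1.39 (1.22 to 1.59), over summed counts. Per cell the Prf1 median was 6.71 per 10000 in control and 6.31 in NK-depleted members, and at 5000 UMIs a cell Prf1 was found in 88.5% (69.9 to 97.5%) and 86.2% (79.3 to 91.5%), so its higher sum was not seen in the typical cell. Below the cut the ratios over summed counts were 2.33 for Gzmd, 2.08 for Gzme, 1.16 for Gzmb and 1.19 for Prf1. Members also differed in Gzmc and Gzmf level, with medians of 66.95 per 10000 in control and 92.4 in NK-depleted members. In the NK-depleted library Gzmd and Gzmb rose with that level. The ratios between libraries were not taken at a like level. The dividing cells over the cut had Gzmd at 660.5 and 629.5 CPM, so the higher Gzmd level was not seen there. Gzmb was at 3399 and 4412 CPM in those cells and Prf1 at 793 and 707.5 CPM.

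The chemokine genes Ccl3, Ccl4 and Ccl5 were lower in NK-depleted members. Ccl3, which draws in lymphocytes and myeloid cells, stood at 700.1 CPM in control members and 88.2 CPM in NK-depleted members, a ratio of 0.126 (0.103 to 0.153). It was found in 14 of 28 control and in 42 of 158 NK-depleted members, and the highest control cell held 23.6% of its UMIs. The Ccl3 log2 ratio was -2.99 here, -1.20 at a cut of 20, and -3.01 without the highest cell of each library. Ccl4, its neighbour, stood at 1929.8 and 615.6 CPM, a ratio of 0.319 (0.291 to 0.350). Below the cut the ratios were 0.803 for Ccl3 and 0.767 for Ccl4. In the dividing cells over the cut Ccl3 was at 165.3 and 151.9 CPM. Ccl5 stood at 2011.3 and 393.4 CPM in members, a ratio of 0.196 (0.177 to 0.216), and at 4109.2 and 1964.4 CPM below the cut, a ratio of 0.478 (0.473 to 0.483). Of 10 cytokine and chemokine genes 9 were lower by the list threshold and 1 higher, against 31.5% lower and 21.4% higher of all 7671 member genes at 10 CPM. Ifng, which encodes interferon gamma, was among the lower ones at 735.8 and 356.2 CPM. So was Spp1, but without the highest cell of each library its log2 ratio was 1.18. The higher one was the chemokine gene Xcl1, which had no UMI in control members.

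Most genes of the early T cell receptor response and most serpins were lower as well. Nr4a3, a receptor-induced nuclear factor, stood at 89.1 and 26.0 CPM in members, a ratio of 0.292 (0.186 to 0.462), and was at 34.0 CPM in both libraries below the cut. Of 15 early response genes 10 were lower and 2 higher in NK-depleted members, and below the cut 4 of 15 were lower and 0 higher. Over all member genes at 10 CPM, 31.5% were lower and 21.4% higher. Of 6 measured serpins 5 were lower and 1 higher, and their log2 ratios had a median of -1.03. Below the cut 2 of 7 were lower and 1 higher. Serpinb9b stood at 267.3 and 111.1 CPM in members and Serpina3g at 211.3 and 60.1 CPM. Nrgn, which encodes the calmodulin-binding neurogranin, stood at 313.1 and 64.2 CPM, a ratio of 0.205 (0.159 to 0.265), and 0.472 below the cut. Adora2a, the adenosine receptor gene, had a log2 ratio of -1.69, and Lag3 of -1.01. Tox stood at 45.8 and 18.4 CPM in members, a log2 ratio of -1.32 that lay near the -1.43 below the cut.

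Cdkn1a, which encodes the cell cycle inhibitor p21, was higher in NK-depleted members. It had 4 UMIs in 3 control members and 159 UMIs in 63 NK-depleted members, or 10.2 and 81.0 CPM, a ratio of 7.96 (3.05 to 29.6). Below the cut the ratio was 1.90 (1.71 to 2.10), and in the dividing cells over the cut Cdkn1a was at 56.9 and 94.8 CPM. At 5000 UMIs a cell it was found in 3.85% (0.0973 to 19.6%) of control members and in 22.5% (15.8 to 30.3%) of the NK-depleted ones; unthinned shares were 10.7% and 39.9%. Below the cut the thinned shares were 5.97% and 9.82%. Metallothioneins were higher too, with Mt1 at 56.0 and 206.9 CPM, a ratio of 3.69 (2.41 to 5.96) against 2.35 below the cut. Of 23 glycolysis and hypoxia genes 19 were higher and 1 lower, against 21.4% higher and 31.5% lower of all member genes at 10 CPM. Their median on the log2 scale was 0.60 in members and 0.23 below the cut, where 7 of 22 were higher and 0 lower. Bnip3, of mitochondrial clearance under low oxygen, stood at 20.4 and 61.7 CPM, and Aldoa, which encodes aldolase, at 636.5 and 1144 CPM. Ifitm2 had log2 ratios of 1.41 in members and 1.32 below the cut.

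Interferon response genes did not show in members the difference they showed below the cut. Of 22 type I interferon genes 18 were lower by the list threshold in NK-depleted cells below the cut, where their median on the log2 scale was -0.54. Over all 7386 genes at 10 CPM there, 1047 were lower and 238 higher. Among members 5 of 21 were lower and 6 higher, with a median of 0.08. That split lay near the 31.5% lower and 21.4% higher of all 7671 member genes, and it rests on 28 control cells. This difference between the groups was not tested.

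Some library differences rested on 1 cell. Gzma had 504.1 CPM in control and 213 CPM in NK-depleted members, but 1 control cell held 75.8% of its UMIs, and without the highest cell of each library the log2 ratio went from -1.24 to 0.29. Spp1 went from -1.52 to 1.18 and Itga4 from -1.32 to 0.17 in the same way. Serpine2, a protease inhibitor gene, had 80.3% of its control UMIs in 1 cell and went from -2.43 to -0.37. Cd74, of antigen presentation, had 75.5% of its NK-depleted UMIs in 1 member, and its log2 ratio went from 2.88 to 1.40.

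**Figure D5:**
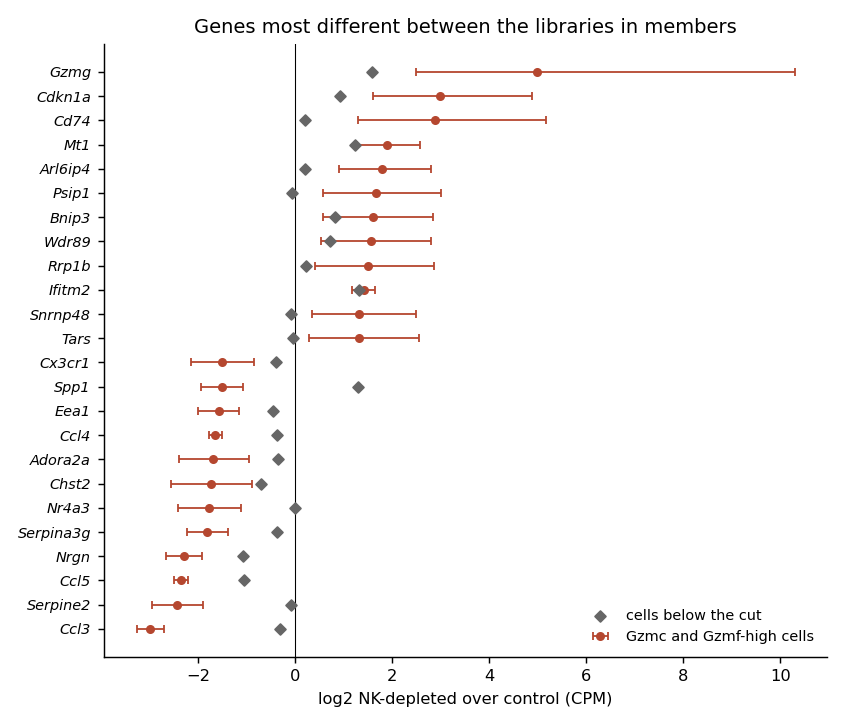
Log2 ratio of NK-depleted over control CPM (x axis) for the 24 genes with the largest differences in members, shown for members (circles, with 95% intervals of counting error) and for cells below the cut (diamonds). Ccl3 has the lowest and Gzmg the highest ratio in members, and the Ifitm2 symbols, at 1.41 and 1.32, lie close together.

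T cell receptor beta V segments were spread in the members. A segment was seen in 15 of 28 control members and 54 of 158 NK-depleted members, which carried 8 and 13 different leading segments. In control members Trbv26 led with 4 of 15 (26.7%, 7.79 to 55.1%), against 4.82% below the cut. Among NK-depleted members Trbv13-1 and Trbv3 led with 9 of 54 each (16.7%, 7.92 to 29.3%), against 6.33% and 8.52% below the cut. Trbv12-2 had 2 of 54 (3.70%, 0.452 to 12.8%) against 12.4% below the cut. The intervals are wide, and no segment held most of the members of either library.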

How the data were processed

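Single-cell 5′ gene expression libraries were made with 10x Genomics chemistry from sorted live CD8+ cells, per the labels' protocols. The authors deposited 2 matrices of raw UMI counts per gene and cell, 1 per group, and the file headers name Cell Ranger 6.1.2; Seurat 4.0.6 and the mouse build mm10 are named in the submitters' processing notes. Total counts were 108106687 and 128853437 UMIs. No per-sample column was left unused (0). Genes of the rule, receptor segments, mitochondrial and ribosomal protein genes and clone-number names (Gm, Rik) stayed out of the ranking.

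Members were selected by the stated rule, and their counts were summed per library and scaled to CPM. Ratios carry exact conditional binomial intervals and shares exact Clopper-Pearson intervals at 95%, which cover counting error only. A share of 0 cells carries the limit that 3 counts allow. Shares of cells with a UMI were recomputed after thinning to 5000 UMIs. Genes were named by rank: the 12 highest and 12 lowest ratios of each comparison, the 6 highest and 6 lowest differences between members and cells below the cut, up to 4 of each gene list in each comparison, the granzyme C to G genes, and a short fixed set such as Gzmb, Prf1, Il7r and Klrb1c. One gene of the ranking is not reported here. Klre1, the CD4 T cell markers and the beta V segments were named after their values were seen. The members and lists were chosen with earlier results of these data known. Doublets were not called, and an alternative left out the 8% of cells with most UMIs. The other alternatives were cuts of 20 and 80, a 5% mitochondrial limit, no UMI of 10 further division genes, no UMI of Cd4 or Trdc, thinning first, TMM and median-of-ratios factors, a 10 CPM minimum, and means over cells. Added after seeing the data were leaving out the 391 cell barcodes found in both libraries and leaving out the highest cell per gene. Python 3.11.15, numpy 2.4.6, scipy 1.17.1, pandas 2.3.3, matplotlib 3.10.9, R 4.3.3 and edgeR 4.0.16 (for TMM factors alone) were used.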

Additional observations from a re-analysis of the deposited data

Results flagged for a closer look

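Ccl3 lay on opposite sides in the libraries. Its log2 ratio of members over the cells below the cut was 1.84 for control cells and -0.84 for NK-depleted cells, a difference (NK-depleted minus control) of -2.67. The difference between the libraries was not tested, since each group is 1 library. The highest cell held 23.6% of the control and 19.7% of the NK-depleted UMIs of Ccl3 in members.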

How the results depend on the processing

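No paired analysis was possible because each group is 1 library. The share of members differed by 4.57 percentage points, and by 2.065 without 10 further division genes, 7.12 after thinning, 6.83 at a cut of 20 and 2.475 at a cut of 80. With a 10 CPM minimum, 280 genes were higher and 415 lower in members. Between libraries, genes higher in NK-depleted members (121) numbered 292 without the further division genes, 214 without the 8% of cells with most UMIs, 225 after thinning, 75 and 284 at cuts of 20 and 80, 204 with TMM, 197 with median-of-ratios factors, 937 at 10 CPM and 260 by means over cells. Genes lower (343) numbered 565, 161 and 606 without the division genes and at cuts of 20 and 80, 206 and 212 with the factors, and 1311 at 10 CPM. Below the cut, 10 higher genes became 18 with TMM, 19 with median-of-ratios factors, 63 at 10 CPM and 18 by means, and 58 lower genes became 37 with median-of-ratios factors and 199 at 10 CPM. The cause was not tested.

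Signs on the log2 scale reversed in 18 results of named genes that had passed the fold and CPM thresholds. Sign changes of other genes were not listed. Of the remaining named-gene results, 940 moved outside their main intervals of counting error and 6210 stayed within them. In members over the cells below the cut, Ccr7 in the control library became 0.0685 at a cut of 20, and Cd74 in the NK-depleted library 0.84 without the division genes and 0.17 by means. Between libraries without the division genes, Cx3cr1 became 0.50, Gzma 3.24, Itga4 1.85 and Phgdh -0.0632. After thinning, Gzma became 1.44, Nt5e 0.15 and Spp1 0.13. Without the 8% of cells with most UMIs, Itga4 became 1.06 and Spp1 0.74. Gzma became 0.68 at a cut of 20, and Hsph1 0.11 and Serpinb9 0.0109 at a cut of 80. Without the highest cell, Gzma became 0.29, Itga4 0.17 and Spp1 1.18. Control members number 28, which limits library ratios of genes with few UMIs.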
